A study of Homo sapiens with 24 samples.

Results

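The 39 genes described here encode the machinery of DNA replication and S phase. They were chosen by name, as the rows of a gene count table whose Ensembl identifiers map to 39 listed symbols, out of 60617 identifiers. All 39 had enough counts to be tested, among 13098 tested genes. By role, 10 license replication origins, 6 activate the replicative helicase, 6 are polymerase or primase subunits, 7 form the sliding clamp, its loader and the enzymes that join Okazaki fragments, 5 supply nucleotides, and 5 act in chromatin assembly, the replication checkpoint or histone mRNA handling.

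RNA came from THP1, a human monocytic leukaemia line that the phorbol ester PMA turns into adherent macrophages. The study crossed the CD33 genotype with a lentiviral vector. The CD33KO_shPTPN6 group (5 libraries) carried a CD33 knockout and pLKO.1 with a hairpin against PTPN6, and the CD33KO_shCTRL group (6 libraries) carried the knockout and empty pLKO.1. The WT_shPTPN6 group (6 libraries) was wild type with the hairpin, and the WT_shCTRL group (6 libraries) was wild type with empty pLKO.1. CD33 is a sialic acid-binding receptor that dampens myeloid signalling, and PTPN6 encodes SHP-1, a tyrosine phosphatase that such receptors recruit. Cells of all 4 groups met virus for 24 hours, were selected with puromycin at 1 µg/ml, received 10 ng/ml PMA for 48 hours and matured for 48 hours without it. CD33KO_shPTPN6 replicate 2 is named in the labels but had no column among the counts used here. A single hairpin was used and the control vector held none. The sources used here do not say whether the knockout line is a single clone or whether libraries of a group came from separate cultures. The p-values therefore set group differences against the spread between these libraries only.

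Replication begins with licensing. The origin recognition complex, CDC6 and CDT1 load the ring of MCM helicase subunits onto DNA, and MCM10, CDC45 and the GINS complex then turn the ring into a moving helicase that primase, the polymerases, the clamp PCNA and its loader RFC follow. Most of these genes are transcribed around the entry into S phase under E2F transcription factors, which proteins of the RB family hold back, so their mRNAs are scarce in cells that have left the cell cycle. THP1 monocytes divide in culture, and PMA is known to make many of them stop dividing as they mature.

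Library totals were 2024032 to 2581042 counts in CD33KO_shPTPN6, 2048161 to 3749258 in CD33KO_shCTRL, 3318001 to 6269304 in WT_shPTPN6 and 4170191 to 5700712 in WT_shCTRL, so the knockout groups were mostly the shallower ones. Levels below are CPM (read counts scaled to a common library size after TMM normalization), counted at the 3' ends of polyadenylated RNA. PTPN6 stood at 4.94 to 11.9 CPM in CD33KO_shPTPN6 against 32.6 to 44.1 CPM in CD33KO_shCTRL, and at 8.73 to 12.8 CPM in WT_shPTPN6 against 35.8 to 52.4 CPM in WT_shCTRL. CD33 stood at 15.7 to 29.03 CPM in CD33KO_shPTPN6, 16.2 to 22.5 CPM in CD33KO_shCTRL, 81.3 to 94.9 CPM in WT_shPTPN6 and 39.7 to 48.5 CPM in WT_shCTRL. The edited position is not given in the sources used here, so these 3' counts check nothing about the edit. Of 14 macrophage markers 11 were tested. The summed level of all 14 was 6029.8 to 6541 CPM in CD33KO_shPTPN6, 3770.1 to 3995 in CD33KO_shCTRL, 5291 to 5604 in WT_shPTPN6 and 1675 to 1894 in WT_shCTRL. CHI3L1, MMP9, CD14 and CSF1R carried most of it, while MRC1, MARCO and FCGR3A were near 0. Markers of the same list differed in direction in CD33KO_shPTPN6 against WT_shCTRL: CD163 averaged 2.42 against 22.97 CPM, LYZ 5.66 against 26.1 CPM and MSR1 8.66 against 37.8 CPM. Of 11 markers of undifferentiated myeloid progenitors 5 were tested. The sums over all 11 were 68.04 to 81.5 CPM in CD33KO_shPTPN6, 44.1 to 61.6 CPM in CD33KO_shCTRL, 132 to 167 CPM in WT_shPTPN6 and 201 to 220.2 CPM in WT_shCTRL, with MPO and CD34 near 0. The 12 markers of the HEK-293 cells that made the virus and of epithelium summed to 155 to 174 CPM in CD33KO_shPTPN6, 148 to 175 CPM in CD33KO_shCTRL, 90.1 to 132 CPM in WT_shPTPN6 and 69.5 to 88.3 CPM in WT_shCTRL, nearly all from CDH1, CDH2, ZIC2 and INA, with LIN28B and EPCAM at or near 0. The 11 lymphoid markers summed to 349 to 403 CPM in CD33KO_shPTPN6, 617 to 708 CPM in CD33KO_shCTRL, 169 to 209 CPM in WT_shPTPN6 and 600.2 to 734 CPM in WT_shCTRL, mostly from GNLY and TRAC. The 12 fibroblast and endothelial markers summed to 731 to 785 CPM in CD33KO_shPTPN6, 437 to 479.7 CPM in CD33KO_shCTRL, 385 to 454 CPM in WT_shPTPN6 and 186 to 214 CPM in WT_shCTRL, mostly from PECAM1. The share of counts from mitochondrial transcripts was 6.36 to 6.55% in CD33KO_shPTPN6, 6.53 to 7.13% in CD33KO_shCTRL, 7.85 to 8.697% in WT_shPTPN6 and 5.86 to 6.54% in WT_shCTRL. The part of these differences in the results below was not tested.

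The replication genes were lowest where both perturbations met. Their summed level was 1064 to 1158 (median 1123) CPM in CD33KO_shPTPN6, 1814 to 1942 (median 1886) in CD33KO_shCTRL, 1545 to 1649.9 (median 1615) in WT_shPTPN6 and 1790.1 to 1916 (median 1840.3) in WT_shCTRL. Every CD33KO_shPTPN6 library thus lay below every WT_shPTPN6 library, these lay below every library with the empty vector, and the 2 empty-vector groups overlapped. Of the 39 members, 35 had their lowest group mean in CD33KO_shPTPN6 and none its highest. The share of all genes with their lowest or highest mean there was not computed. All 5 CD33KO_shPTPN6 libraries lay below all 18 others for 23 members, which held for 393 (3%) of the 13098 tested genes. In such bulk samples fewer cycling cells and less RNA per cell cannot be told apart.

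**Figure D1:**
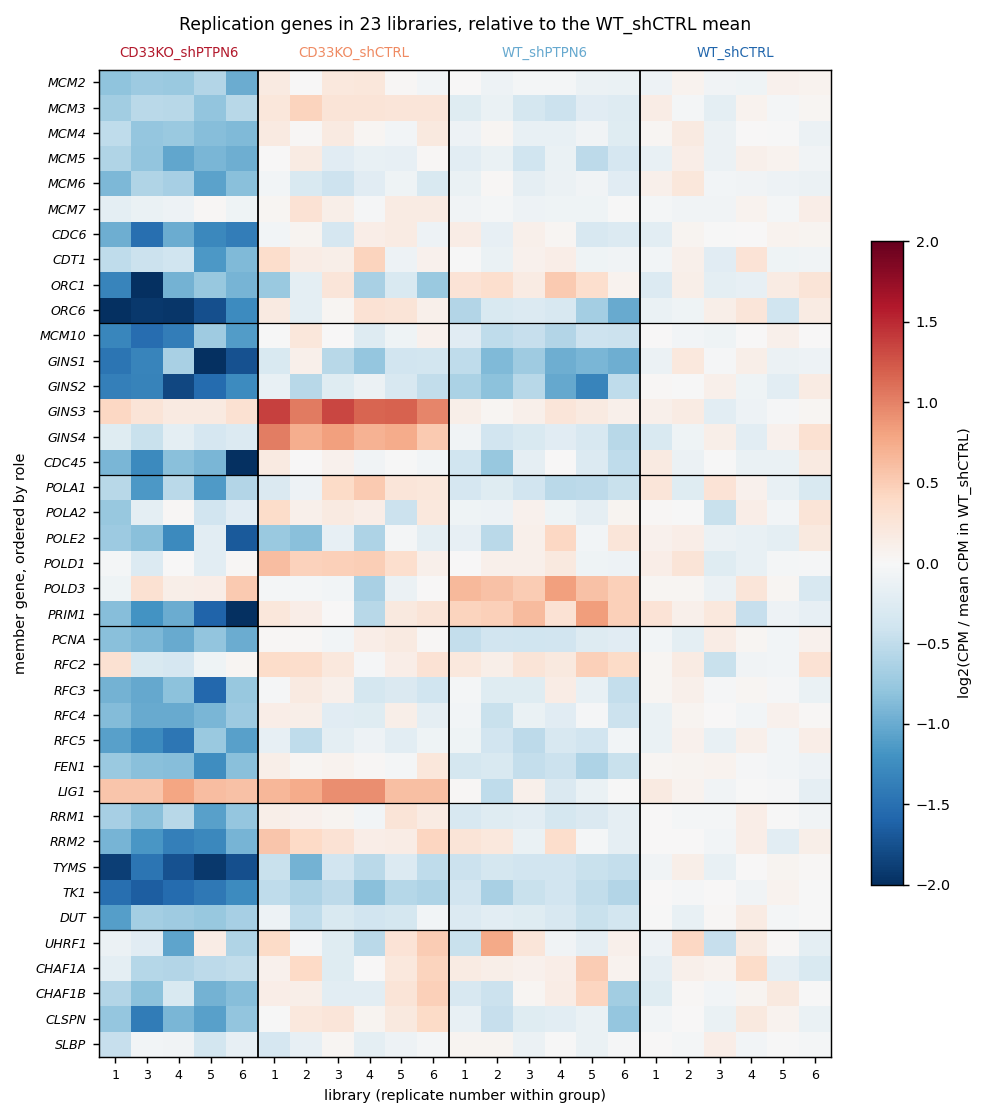
The heat map gives log2 of the CPM of each of the 39 members (rows, grouped by role) in each of the 23 libraries (columns) over its mean in WT_shCTRL; colours stop at 2 in either direction. The CD33KO_shPTPN6 columns are mostly blue, darkest in cells of PRIM1, CDC45, ORC1, ORC6 and GINS1. LIG1 is red in both knockout groups, and GINS3 is deepest red in CD33KO_shCTRL.

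A gene is said to have risen or fallen where the edgeR quasi-likelihood test, adjusted by Benjamini-Hochberg over all 13098 genes, gave a p under 0.05. Log2 fold changes are given ± SE. CD33KO_shPTPN6 against CD33KO_shCTRL had 32 members lower and 1 higher, with a median log2 fold change of -0.87 against -0.01 over all tested genes, of which 21.6% were lower and 20.5% higher. At least 2-fold lower were 10 members (background 6.07%), and 29 lay lower without overlap between the groups (background 12.4%). WT_shPTPN6 against WT_shCTRL had 18 members lower and 4 higher and a median of -0.12, where 30.4% of all genes were lower and 30.2% higher. CD33KO_shPTPN6 against WT_shCTRL had 30 members lower and 1 higher and a median of -0.79, where 31.7% and 32.1% of all genes were; 12 members were at least 2-fold lower (background 12.5%) and 28 lay lower without overlap (background 23.1%). CD33KO_shPTPN6 against WT_shPTPN6 also had 30 lower and 1 higher, with a median of -0.64 and backgrounds of 27.5% and 29.0%. CD33KO_shCTRL against WT_shCTRL had 6 lower and 6 higher and a median of 0.08, with backgrounds of 28.4% and 28.3%, and the members' share in either direction was below its background. Scaling by library totals alone lowered the share of higher genes among all called genes to 35.6%, against 48.7%, for CD33KO_shPTPN6 over CD33KO_shCTRL, and to 37.9%, against 50.3%, for CD33KO_shPTPN6 over WT_shCTRL. It set the median of all genes at -0.10 and -0.14 in those comparisons and that of the members at -0.95 and -0.94. For WT_shPTPN6 over WT_shCTRL the same scaling set the members' median at -0.20, against -0.12, and the share of called genes that were higher at 40.6%, against 49.8%. For CD33KO_shCTRL over WT_shCTRL it set the members' median at 0.02, against 0.08.

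Promoters are shown for 5 roles, so that members named below can be read beside their values, each for the member with the smallest p for the difference in knockdown effect between the 2 lines. The windows run from 250 bases before to 50 after the annotated start, 5′ to 3′ on the gene's strand, from RefSeq on GRCh38.p14, which held 35 of the 39 members. Capitals mark E2F-type letters (any of TTTGGCGC, TTTCCCGC, TTTGCCGC, TTTCGCGC, TTCCCGCC or TTGGCGCC, on either strand) and the CCAAT box, whose letters on the other strand read ATTGG.
MCM2 (chr3:127598161-127598460, plus strand): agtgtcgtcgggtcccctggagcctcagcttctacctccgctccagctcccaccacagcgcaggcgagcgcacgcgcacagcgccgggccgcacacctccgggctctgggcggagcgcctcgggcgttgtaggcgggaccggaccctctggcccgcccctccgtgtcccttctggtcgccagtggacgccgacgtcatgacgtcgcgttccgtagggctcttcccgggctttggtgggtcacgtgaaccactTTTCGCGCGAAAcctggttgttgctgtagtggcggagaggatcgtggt
GINS3 (chr16:58392221-58392520, plus strand): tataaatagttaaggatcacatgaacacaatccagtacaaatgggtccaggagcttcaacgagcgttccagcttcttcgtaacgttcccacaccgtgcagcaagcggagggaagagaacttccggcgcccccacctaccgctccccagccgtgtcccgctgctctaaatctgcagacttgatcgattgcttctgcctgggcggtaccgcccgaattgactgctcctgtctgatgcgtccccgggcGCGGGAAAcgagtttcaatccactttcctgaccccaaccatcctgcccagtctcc
PRIM1 (chr12:56752274-56752573, minus strand): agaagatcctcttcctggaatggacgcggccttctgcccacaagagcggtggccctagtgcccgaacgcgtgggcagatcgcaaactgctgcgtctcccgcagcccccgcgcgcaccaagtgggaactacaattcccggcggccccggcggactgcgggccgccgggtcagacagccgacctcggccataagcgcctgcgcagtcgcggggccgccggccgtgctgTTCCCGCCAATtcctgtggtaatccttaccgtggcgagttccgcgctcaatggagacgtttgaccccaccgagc
RRM2 (chr2:10122489-10122788, plus strand): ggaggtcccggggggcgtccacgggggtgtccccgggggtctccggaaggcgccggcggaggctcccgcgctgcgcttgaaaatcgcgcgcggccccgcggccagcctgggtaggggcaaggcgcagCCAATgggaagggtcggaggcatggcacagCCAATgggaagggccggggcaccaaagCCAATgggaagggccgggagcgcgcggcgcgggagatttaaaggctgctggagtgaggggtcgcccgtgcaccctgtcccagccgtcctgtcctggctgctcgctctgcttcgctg
CLSPN (chr1:35769929-35770228, minus strand): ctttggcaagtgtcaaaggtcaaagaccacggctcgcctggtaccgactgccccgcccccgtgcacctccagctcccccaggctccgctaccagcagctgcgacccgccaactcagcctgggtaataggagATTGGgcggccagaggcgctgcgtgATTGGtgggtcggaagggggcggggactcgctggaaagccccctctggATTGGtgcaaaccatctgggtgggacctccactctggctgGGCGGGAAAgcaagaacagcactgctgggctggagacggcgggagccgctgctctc

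The MCM2 window holds 2 overlapping E2F-type matches that begin at positions 3 and 7 counted from the annotated start, and the CLSPN window holds 2 at -6 and -5. GINS3 has 1 at -5, and in PRIM1 1 at -24 shares letters with a CCAAT box. The RRM2 window shown, 1 of 2 in the table, holds 3 CCAAT boxes and no E2F-type match (the other window holds 1 and none), and the FEN1 window, which had the smallest p among the clamp and ligation genes, holds neither. Of the 35 members 24 (68.6%) had an E2F-type match, against 2047 of 27305 genes (7.50%) in the table. CCAAT occurred in 20 members (57.1%) against 39.7% of all genes, and the cell cycle homology letters TTTGAA or, alternatively, TTCGAA in 3 (8.57%) against 19.5%. Among members that fell with the knockdown in the knockout line, 19 of 29 had an E2F-type match, and among those that did not pass the test 5 of 6 had one, while CCAAT was in 19 of 29 and 1 of 6. Matches describe letters, not binding.

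Origin licensing genes fell together when PTPN6 was knocked down in the knockout. All 10 were lower in CD33KO_shPTPN6 than in CD33KO_shCTRL (background 21.6%). Against WT_shCTRL (background 31.7%) and against WT_shPTPN6 (background 27.5%) 9 were lower. In wild type the knockdown lowered 3 (MCM3, MCM5 and ORC6) and raised 1 (ORC1), where 30.4% of all genes were lower and 30.2% higher. Their summed level was 365 to 386 CPM in CD33KO_shPTPN6, 619 to 655 in CD33KO_shCTRL, 517 to 569 in WT_shPTPN6 and 556 to 623 in WT_shCTRL.

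CDC6 (ENSG00000094804, chr17:40287633-40304657, plus strand), the ATPase that helps load the helicase, stood at 17.3, 11.9, 17.1, 13.9 and 13.1 CPM in the 5 CD33KO_shPTPN6 libraries, against 26.98 to 38.03 CPM (median 34.02) in CD33KO_shCTRL. WT_shPTPN6 had 27.1 to 37.5 CPM (median 32.7), against 29.2 to 35.7 CPM (median 34.7) in WT_shCTRL. All CD33KO_shPTPN6 values lay below all others, and the other three groups overlapped throughout. The knockdown effect was -1.22 ± 0.14 (log2 fold change ± SE, edgeR adjusted p = 1.17e-12) in the knockout and -0.05 ± 0.09 (edgeR adjusted p = 0.674) in wild type. ORC6, a subunit of the origin recognition complex, stood at 7.41, 7.77, 7.63, 8.76 and 12.3 CPM in the 5 CD33KO_shPTPN6 libraries, against 25.7 to 35.95 CPM (median 32.5) in CD33KO_shCTRL. WT_shPTPN6 had 14.7 to 24.5 CPM (median 21.5), against 22.4 to 34.8 CPM (median 29.9) in WT_shCTRL. Here the knockdown lowered both lines, with every WT_shPTPN6 library below every CD33KO_shCTRL library and some overlap with WT_shCTRL. Its log2 fold change was -1.86 ± 0.17 in the knockout (edgeR adjusted p = 1.2e-17), the largest among the 39 members, and -0.50 ± 0.11 in wild type (edgeR adjusted p = 3.19e-05). ORC1, the ATPase subunit of the same complex, stood at 5.93, 3.66, 7.63, 8.76 and 7.77 CPM in the 5 CD33KO_shPTPN6 libraries, against 8.80 to 17.5 CPM (median 10.7) in CD33KO_shCTRL. WT_shPTPN6 had 15.4 to 21.3 CPM (median 18.2), against 12.3 to 17.7 CPM (median 14.6) in WT_shCTRL. Its libraries with both perturbations were all lowest, by a narrow margin from CD33KO_shCTRL, and its counts there were only 8 to 19. ORC1 rose by 0.29 ± 0.13 with the knockdown in wild type (edgeR adjusted p = 0.0479) and fell by 0.78 ± 0.22 in the knockout (edgeR adjusted p = 0.0021). The rise was lost with DESeq2 (DESeq2 adjusted p = 0.0587), with scaling by library totals (edgeR adjusted p = 0.168), without the low-count filter (edgeR adjusted p = 0.0841), and without any 1 of WT_shCTRL replicates 1, 3 or 4 or WT_shPTPN6 replicates 1, 2, 4 or 5 (edgeR adjusted p = 0.0533 to 0.108). CDT1, the licensing factor that geminin restrains, changed by -0.81 ± 0.13 with the knockdown in the knockout (edgeR adjusted p = 9.18e-08) and by -0.01 ± 0.09 in wild type (edgeR adjusted p = 0.941).

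Of the 6 subunits of the helicase ring, 5 had a called difference between the lines in their response to the knockdown, all lower (background 13.9%). MCM2 (ENSG00000073111, chr3:127598223-127622436, plus strand) stood at 40.99, 42.96, 42.6, 47.4 and 35.99 CPM in the 5 CD33KO_shPTPN6 libraries, against 68.7 to 83.5 CPM (median 76.5) in CD33KO_shCTRL. WT_shPTPN6 had 65.01 to 71.3 CPM (median 67.7), against 66.6 to 76.1 CPM (median 71.5) in WT_shCTRL. The CD33KO_shPTPN6 libraries were apart and low, and the other three groups overlapped. The knockdown effect on MCM2 was -0.87 ± 0.09 in the knockout (edgeR adjusted p = 1.14e-14) against -0.07 ± 0.07 in wild type (edgeR adjusted p = 0.382). MCM4 stood at 60.8, 50.3, 51.6, 47.9 and 46.6 CPM in the 5 CD33KO_shPTPN6 libraries, against 83.5 to 98.6 CPM (median 93.4) in CD33KO_shCTRL. WT_shPTPN6 had 73.2 to 88.8 CPM (median 79.1), against 79.2 to 97.7 CPM (median 86.1) in WT_shCTRL. Again only CD33KO_shPTPN6 stood apart, with log2 fold changes of -0.84 ± 0.08 in the knockout (edgeR adjusted p = 2.71e-15) and -0.11 ± 0.06 in wild type (edgeR adjusted p = 0.118). MCM3 stood at 63.7, 70.8, 70.5, 59.8 and 69.9 CPM in the 5 CD33KO_shPTPN6 libraries, against 121 to 139.8 CPM (median 123) in CD33KO_shCTRL. WT_shPTPN6 had 77.02 to 93.9 CPM (median 87.2), against 90.3 to 115 CPM (median 103) in WT_shCTRL. Its CD33KO_shCTRL libraries were above all others, 0.28 ± 0.06 over WT_shCTRL (edgeR adjusted p = 5.63e-05), while its CD33KO_shPTPN6 libraries were below all others, -0.62 ± 0.07 over WT_shCTRL (edgeR adjusted p = 1.06e-12). MCM6 stood at 28.6, 35.2, 33.7, 25.3 and 29.9 CPM in the 5 CD33KO_shPTPN6 libraries, against 40.03 to 51.3 CPM (median 44.2) in CD33KO_shCTRL. WT_shPTPN6 had 45.6 to 54.2 CPM (median 48.8), against 48.9 to 62.1 CPM (median 50.9) in WT_shCTRL. It fell in the knockout with the empty vector as well, -0.22 ± 0.08 (edgeR adjusted p = 0.0228), with overlap between the groups. That call was lost with all libraries thinned to the lowest total (edgeR adjusted p = 0.286), and without any 1 of CD33KO_shCTRL replicate 3 or WT_shCTRL replicate 2 (edgeR adjusted p = 0.0703 to 0.0731). MCM5 averaged 37.2 ± 4.63 CPM in CD33KO_shPTPN6, 64.9 ± 6.67 CPM in CD33KO_shCTRL, 55.3 ± 5.98 CPM in WT_shPTPN6 and 67.3 ± 5.71 CPM in WT_shCTRL (SD, n = 5, 6, 6 and 6). MCM7 was the exception: it averaged 96.8 ± 5.43 CPM in CD33KO_shPTPN6, 113 ± 8.63 CPM in CD33KO_shCTRL, 99.2 ± 2.46 CPM in WT_shPTPN6 and 104 ± 6.36 CPM in WT_shCTRL (SD, same n). MCM7 fell by 0.23 ± 0.07 in the knockout with the knockdown (edgeR adjusted p = 0.00514), and its difference between the lines was -0.16 (95% interval -0.34 to 0.01; edgeR adjusted p = 0.18).

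**Figure D2:**
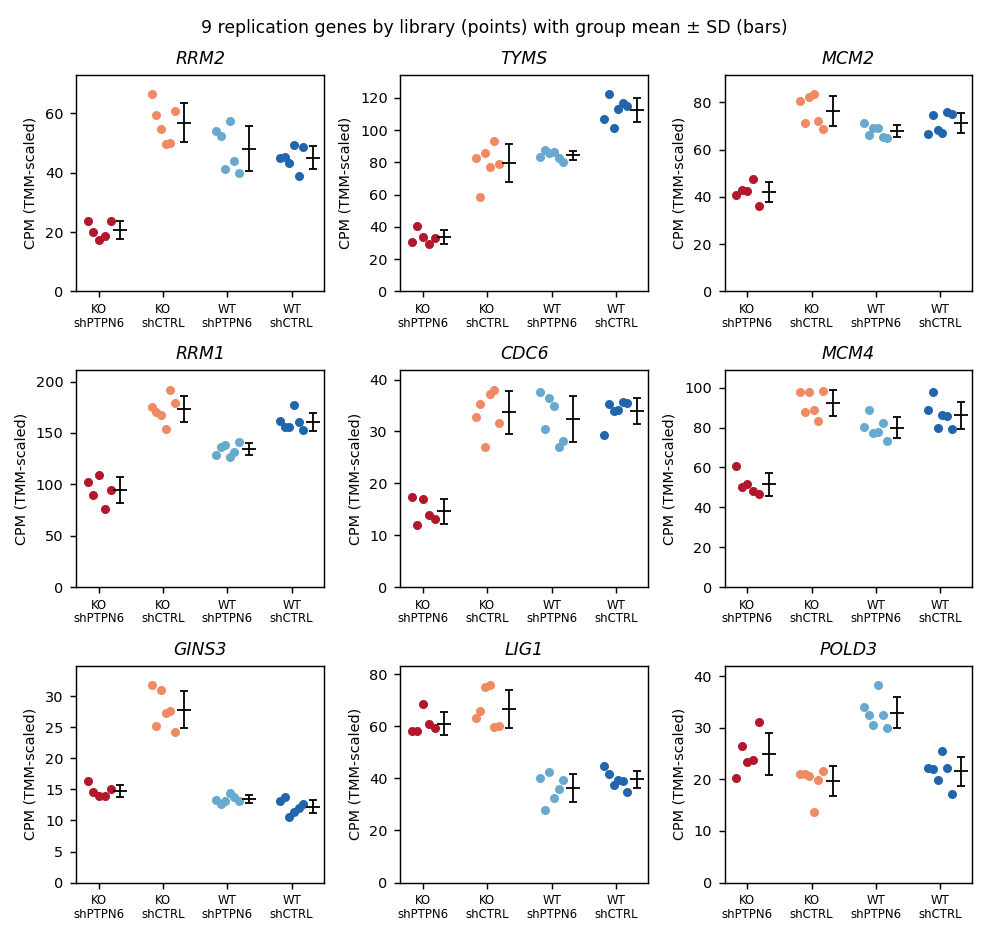
Points give the CPM (y axis, from 0) of 9 members in each library, by group on the x axis, and bars give the group mean ± SD. RRM2, TYMS, MCM2, RRM1, CDC6 and MCM4 are lowest in all 5 libraries with CD33 knockout and PTPN6 knockdown; GINS3 is highest in CD33KO_shCTRL, LIG1 is high in both knockout groups, and POLD3 has its highest mean in WT_shPTPN6.

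Among the genes that activate the helicase, all 6 fell with the knockdown in the knockout (background 21.6%) and 5 in wild type (background 30.4%). Knockout with the empty vector raised 2 (GINS3 and GINS4) and lowered 2 (GINS1 and GINS2), where 28.3% of all genes were higher and 28.4% lower. The 4 subunits of the same GINS complex were called in both directions there, at shares near those of all genes, and the 2 falls did not hold in every alternative. The summed level was 66.3 to 74.5 CPM in CD33KO_shPTPN6, 139.5 to 165 in CD33KO_shCTRL, 88.2 to 106 in WT_shPTPN6 and 127 to 140.3 in WT_shCTRL.

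GINS3 (ENSG00000181938, chr16:58295080-58406144, plus strand) stood at 16.3, 14.6, 13.9, 13.9 and 15.1 CPM in the 5 CD33KO_shPTPN6 libraries, against 24.2 to 31.8 CPM (median 27.5) in CD33KO_shCTRL. WT_shPTPN6 had 12.6 to 14.5 CPM (median 13.2), against 10.6 to 13.7 CPM (median 12.3) in WT_shCTRL. The CD33KO_shCTRL libraries were above all others, and CD33KO_shPTPN6 overlapped WT_shPTPN6. CD33KO_shPTPN6 lay just above WT_shCTRL, 0.27 ± 0.15, which did not pass the test (edgeR adjusted p = 0.105). GINS3 rose by 1.19 ± 0.12 in the knockout with the empty vector (edgeR adjusted p = 4.15e-15) and fell with the knockdown there, -0.91 ± 0.15 (edgeR adjusted p = 9.05e-08). GINS3 shares 558 exon bases with AC009118.2 on the other strand (126 counts over all libraries against 1291 for GINS3). GINS4 followed it, at 12.3 to 14.8 CPM in CD33KO_shPTPN6, 24.2 to 34.2 CPM in CD33KO_shCTRL, 11.5 to 16.02 CPM in WT_shPTPN6 and 13.7 to 20.7 CPM in WT_shCTRL, with 0.76 ± 0.12 for the knockout (edgeR adjusted p = 2.51e-08). Its fall with the knockdown in wild type, -0.28 ± 0.12 (edgeR adjusted p = 0.0382), was lost with all libraries thinned to the lowest total (edgeR adjusted p = 0.393), and without any 1 of WT_shCTRL replicates 3, 5 or 6 or WT_shPTPN6 replicates 2, 3, 4, 5 or 6 (edgeR adjusted p = 0.0502 to 0.144).

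GINS2 stood at 9.88, 10.1, 7.18, 8.76 and 10.6 CPM in the 5 CD33KO_shPTPN6 libraries, against 17.4 to 23.5 CPM (median 21.03) in CD33KO_shCTRL. WT_shPTPN6 had 10.2 to 17.9 CPM (median 15.4), against 21.9 to 28.4 CPM (median 25.5) in WT_shCTRL. Both knockdown groups were low, and they overlapped each other slightly but not their own controls. GINS2 fell by 1.14 ± 0.17 in the knockout (edgeR adjusted p = 2.2e-08) and fell by 0.75 ± 0.11 in wild type (edgeR adjusted p = 1.1e-08), and the difference between the lines, -0.40, had an interval of -0.81 to 0.02. GINS1 stood at 7.41, 8.23, 13.02, 5.15 and 6.13 CPM in the 5 CD33KO_shPTPN6 libraries, against 11.98 to 22.001 CPM (median 15.8) in CD33KO_shCTRL. WT_shPTPN6 had 10.4 to 14.4 CPM (median 10.98), against 18.8 to 23.6 CPM (median 19.6) in WT_shCTRL. Its highest WT_shPTPN6 library was below its lowest WT_shCTRL library, and CD33KO_shPTPN6 overlapped CD33KO_shCTRL. GINS1 fell by 0.79 ± 0.13 in wild type (edgeR adjusted p = 7.83e-08), the largest fall with the knockdown there among the 39 members. The small falls with the knockout and the empty vector, -0.36 ± 0.14 for GINS1 (edgeR adjusted p = 0.0204) and -0.30 ± 0.12 for GINS2 (edgeR adjusted p = 0.0309), did not hold in every alternative. For GINS1 it was lost with all libraries thinned to the lowest total (edgeR adjusted p = 0.357), and without any 1 of CD33KO_shCTRL replicates 3 or 4 (edgeR adjusted p = 0.0501 to 0.0679). For GINS2 it was lost with all libraries thinned to the lowest total (edgeR adjusted p = 0.308), and without any 1 of CD33KO_shCTRL replicates 2 or 6 or WT_shCTRL replicates 3 or 6 (edgeR adjusted p = 0.051 to 0.0685). MCM10, which recruits factors to the loaded ring, and CDC45, the third part of the active helicase, had log2 fold changes of -1.18 ± 0.14 (edgeR adjusted p = 3.24e-12) and -1.17 ± 0.17 (edgeR adjusted p = 3.75e-09) in the knockout. In wild type the log2 fold changes were -0.42 ± 0.09 (edgeR adjusted p = 6.34e-05) and -0.32 ± 0.11 (edgeR adjusted p = 0.0108).

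The polymerase and primase genes did not all move one way. With the knockdown in the knockout 3 fell (POLA1, POLD1 and PRIM1), 1 rose (POLD3) and 2 did not pass the test (POLA2 and POLE2). In wild type 1 fell (POLA1) and 2 rose (POLD3 and PRIM1). Of all genes, 21.6% were lower and 20.5% higher with the knockdown in the knockout, and 30.4% and 30.2% in wild type. The summed level was 79.4 to 92.4 CPM in CD33KO_shPTPN6, 107 to 119.6 in CD33KO_shCTRL, 107 to 119 in WT_shPTPN6 and 95.1 to 111 in WT_shCTRL.

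PRIM1, the catalytic subunit of primase, stood at 3.46, 2.74, 3.14, 2.06 and 1.23 CPM in the 5 CD33KO_shPTPN6 libraries, against 4.28 to 7.48 CPM (median 7.03) in CD33KO_shCTRL. WT_shPTPN6 had 7.65 to 11.1 CPM (median 8.72), against 4.54 to 7.56 CPM (median 6.31) in WT_shCTRL. It was lowest in the libraries with both perturbations, where it had 3 to 7 counts, and its WT_shPTPN6 libraries were above all others. PRIM1 fell by 1.39 ± 0.31 with the knockdown in the knockout (edgeR adjusted p = 9.02e-05) and rose by 0.54 ± 0.18 in wild type (edgeR adjusted p = 0.00615). The rise was lost with all libraries thinned to the lowest total (edgeR adjusted p = 0.0659). PRIM1 shares 132 exon bases with HSD17B6 on the other strand and 33 with the abundant NACA on its own, so its counts are uncertain. POLA1, the catalytic subunit of polymerase alpha, stood at 13.8, 9.14, 13.9, 9.28 and 13.5 CPM in the 5 CD33KO_shPTPN6 libraries, against 16.6 to 29.1 CPM (median 23.8) in CD33KO_shCTRL. WT_shPTPN6 had 13.9 to 17.2 CPM (median 15.2), against 16.3 to 24.3 CPM (median 19.9) in WT_shCTRL. The CD33KO_shPTPN6 libraries were lowest, but by a very narrow margin from WT_shPTPN6 (13.914 against 13.929 CPM), and the difference between these 2 groups did not pass the test. WT_shPTPN6 overlapped WT_shCTRL. POLA1 fell by 0.95 ± 0.17 in the knockout (edgeR adjusted p = 7.91e-07) and fell by 0.41 ± 0.12 in wild type (edgeR adjusted p = 0.00256).

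POLD3, an accessory subunit of polymerase delta, stood at 20.3, 26.5, 23.3, 23.7 and 31.1 CPM in the 5 CD33KO_shPTPN6 libraries, against 13.7 to 21.6 CPM (median 20.9) in CD33KO_shCTRL. WT_shPTPN6 had 29.9 to 38.2 CPM (median 32.5), against 17.2 to 25.6 CPM (median 22.1) in WT_shCTRL. WT_shPTPN6 was apart from WT_shCTRL, and CD33KO_shPTPN6 overlapped CD33KO_shCTRL. POLD3 rose by 0.60 ± 0.10 in wild type (edgeR adjusted p = 1.19e-07). In the knockout it rose by 0.36 ± 0.14 (edgeR adjusted p = 0.0315), the only member with a positive estimate there. The rise in the knockout was lost with all libraries thinned to the lowest total (edgeR adjusted p = 0.108), with scaling by library totals (edgeR adjusted p = 0.115), and without any 1 of CD33KO_shCTRL replicate 4 or CD33KO_shPTPN6 replicates 3 or 6 (edgeR adjusted p = 0.0641 to 0.171). POLD1, the catalytic subunit of the same polymerase, stood at 29.1, 24.7, 30.1, 25.8 and 30.3 CPM in the 5 CD33KO_shPTPN6 libraries, against 32.1 to 45.95 CPM (median 41.3) in CD33KO_shCTRL. WT_shPTPN6 had 27.9 to 34.1 CPM (median 31.0), against 25.2 to 35.8 CPM (median 29.2) in WT_shCTRL. CD33KO_shCTRL was highest with some overlap, 0.42 ± 0.10 over WT_shCTRL (edgeR adjusted p = 0.000113), and the knockdown gave -0.50 ± 0.12 there (edgeR adjusted p = 0.000207). POLA2, the regulatory subunit of polymerase alpha, had estimates of -0.35 ± 0.17 (edgeR adjusted p = 0.081) in the knockout and -0.04 ± 0.12 (edgeR adjusted p = 0.809) in wild type. POLE2, of polymerase epsilon, had only 5 to 11 counts in CD33KO_shPTPN6 and fell against WT_shCTRL, -0.88 ± 0.27 (edgeR adjusted p = 0.00316).

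Of the clamp, clamp loader and Okazaki fragment genes, 5 of 7 fell with the knockdown in the knockout (PCNA, RFC3, RFC4, RFC5 and FEN1), against a background of 21.6%. In wild type 4 fell (PCNA, RFC4, RFC5 and FEN1) and 1 rose (RFC2), with backgrounds of 30.4% and 30.2%. Knockout with the empty vector changed 1, LIG1, which rose, where 28.3% of all genes were higher and 28.4% lower. The summed level was 202 to 223 CPM in CD33KO_shPTPN6, 338 to 355 in CD33KO_shCTRL, 251 to 279 in WT_shPTPN6 and 311 to 324 in WT_shCTRL.

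LIG1 (ENSG00000105486, chr19:48115445-48170603, minus strand), the ligase that seals Okazaki fragments, stood at 58.3, 58.05, 68.7, 60.8 and 59.3 CPM in the 5 CD33KO_shPTPN6 libraries, against 59.8 to 75.8 CPM (median 64.5) in CD33KO_shCTRL. WT_shPTPN6 had 28.0 to 42.6 CPM (median 37.7), against 34.95 to 44.95 CPM (median 39.3) in WT_shCTRL. Every knockout library, with or without the hairpin, was above every wild-type library, and within each line the hairpin and empty-vector groups overlapped. LIG1 rose by 0.74 ± 0.08 with the knockout and the empty vector (edgeR adjusted p = 2.28e-13) and by 0.72 ± 0.09 with the knockout and the hairpin (edgeR adjusted p = 7.2e-11), and its knockdown effect in the knockout was -0.12 (95% interval -0.30 to 0.06). FEN1, the nuclease that trims the flaps of Okazaki fragments, stood at 57.8, 54.4, 53.4, 40.7 and 53.98 CPM in the 5 CD33KO_shPTPN6 libraries, against 93.9 to 114 CPM (median 100.3) in CD33KO_shCTRL. WT_shPTPN6 had 62.9 to 77.98 CPM (median 71.7), against 90.6 to 101 CPM (median 97.5) in WT_shCTRL. The order was CD33KO_shPTPN6, then WT_shPTPN6, then the 2 empty-vector groups, which overlapped. FEN1 fell by 0.96 ± 0.08 in the knockout (edgeR adjusted p = 7.06e-19) and fell by 0.43 ± 0.06 in wild type (edgeR adjusted p = 2.12e-09). PCNA, the clamp, averaged 32.9 ± 2.17 CPM in CD33KO_shPTPN6, 64.1 ± 3.89 CPM in CD33KO_shCTRL, 48.2 ± 3.22 CPM in WT_shPTPN6 and 61.6 ± 5.12 CPM in WT_shCTRL (SD, n = 5, 6, 6 and 6). PCNA had the same order as FEN1, with log2 fold changes of -0.97 ± 0.10 (edgeR adjusted p = 3.08e-15) and -0.36 ± 0.07 (edgeR adjusted p = 7.77e-06) in the 2 lines.

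The clamp loader subunits did not all move. RFC3, RFC4 and RFC5 changed by -0.86 ± 0.13, -0.87 ± 0.13 and -0.91 ± 0.15 with the knockdown in the knockout (edgeR adjusted p = 4.7e-08, 4.37e-09 and 1.85e-07). RFC2 stood at 18.3, 11.9, 11.7, 13.9 and 15.1 CPM in the 5 CD33KO_shPTPN6 libraries, against 14.6 to 19.1 CPM (median 17.6) in CD33KO_shCTRL. WT_shPTPN6 had 15.96 to 20.5 CPM (median 17.4), against 10.8 to 17.9 CPM (median 14.6) in WT_shCTRL. All 4 groups overlapped. RFC2 rose by 0.28 ± 0.12 in wild type (edgeR adjusted p = 0.039) and had -0.28 ± 0.17 in the knockout (edgeR adjusted p = 0.168). The rise was lost with all libraries thinned to the lowest total (edgeR adjusted p = 0.202), with scaling by library totals (edgeR adjusted p = 0.154), without the low-count filter (edgeR adjusted p = 0.0841), and without any 1 of WT_shCTRL replicates 3, 4 or 5 or WT_shPTPN6 replicates 5 or 6 (edgeR adjusted p = 0.0522 to 0.122). The fall of RFC4 in wild type, -0.20 ± 0.09 (edgeR adjusted p = 0.0416), was lost without any 1 of CD33KO_shCTRL replicates 2, 4, 5 or 6 or WT_shCTRL replicates 2, 3, 4, 5 or 6 or WT_shPTPN6 replicates 2, 3, 4 or 6 (edgeR adjusted p = 0.053 to 0.159). That of RFC5, -0.27 ± 0.10 (edgeR adjusted p = 0.0125), was lost without WT_shPTPN6 replicate 3 (edgeR adjusted p = 0.0773).

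Every nucleotide supply gene fell where both perturbations met. All 5 were lower in CD33KO_shPTPN6 than in each other group (backgrounds 21.6% against CD33KO_shCTRL, 27.5% against WT_shPTPN6 and 31.7% against WT_shCTRL). With the knockdown in wild type 4 fell (RRM1, TYMS, TK1 and DUT), against a background of 30.4%. Knockout with the empty vector lowered 3 (TYMS, TK1 and DUT) and raised 1 (RRM2), with backgrounds of 28.4% and 28.3%. The summed level was 240.2 to 278 CPM in CD33KO_shPTPN6, 438 to 517 in CD33KO_shCTRL, 424 to 454 in WT_shPTPN6 and 531 to 581 in WT_shCTRL.

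RRM2 (ENSG00000171848, chr2:10120698-10131419, plus strand), the S-phase subunit of ribonucleotide reductase, stood at 23.7, 20.1, 17.5, 18.6 and 23.7 CPM in the 5 CD33KO_shPTPN6 libraries, against 49.7 to 66.5 CPM (median 57.2) in CD33KO_shCTRL. WT_shPTPN6 had 39.9 to 57.6 CPM (median 48.1), against 38.97 to 49.3 CPM (median 45.2) in WT_shCTRL. Its values with both perturbations were far below all others, CD33KO_shCTRL was just above WT_shCTRL, and WT_shPTPN6 overlapped both. RRM2 fell by 1.44 ± 0.12 with the knockdown in the knockout (edgeR adjusted p = 1.54e-19) and changed by 0.09 ± 0.08 in wild type (edgeR adjusted p = 0.333). RRM1 (ENSG00000167325, chr11:4094707-4138876, plus strand), the partner subunit, stood at 102, 90.04, 109, 75.8 and 94.5 CPM in the 5 CD33KO_shPTPN6 libraries, against 154 to 192 CPM (median 173) in CD33KO_shCTRL. WT_shPTPN6 had 127 to 141 CPM (median 134), against 153 to 177 CPM (median 158) in WT_shCTRL. WT_shPTPN6 lay between CD33KO_shPTPN6 and the 2 overlapping empty-vector groups. RRM1 fell by 0.88 ± 0.07 in the knockout (edgeR adjusted p = 2.38e-21) and fell by 0.27 ± 0.05 in wild type (edgeR adjusted p = 1.18e-05).

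TYMS (ENSG00000176890, chr18:657604-673578, plus strand), thymidylate synthase, stood at 30.6, 40.7, 33.7, 29.4 and 33.1 CPM in the 5 CD33KO_shPTPN6 libraries, against 58.7 to 93.3 CPM (median 80.7) in CD33KO_shCTRL. WT_shPTPN6 had 80.4 to 87.9 CPM (median 84.7), against 101 to 122 CPM (median 114) in WT_shCTRL. CD33KO_shPTPN6 was lowest and WT_shCTRL highest without overlap, and each single perturbation lay between them. Against WT_shCTRL, TYMS changed by -1.74 ± 0.09 with both (edgeR adjusted p = 1.67e-35), -0.49 ± 0.07 with the knockout (edgeR adjusted p = 8.54e-10) and -0.41 ± 0.06 with the knockdown (edgeR adjusted p = 1.04e-08). TYMS shares 967 exon bases with ENOSF1 on the other strand (1554 counts over all libraries against 7167 for TYMS), and without a stated strand setting their reads cannot be told apart. TK1, thymidine kinase of the salvage path, stood at 28.2, 25.6, 27.8, 29.9 and 33.5 CPM in the 5 CD33KO_shPTPN6 libraries, against 44.9 to 56.7 CPM (median 53.3) in CD33KO_shCTRL. WT_shPTPN6 had 51.5 to 62.0 CPM (median 58.1), against 76.4 to 84.3 CPM (median 80.8) in WT_shCTRL. It had the same order as TYMS, with -1.47 ± 0.09 (edgeR adjusted p = 1.07e-28), -0.61 ± 0.07 (edgeR adjusted p = 5.02e-12) and -0.48 ± 0.07 (edgeR adjusted p = 7.77e-10) for both, the knockout and the knockdown. DUT, which removes dUTP, averaged 86.02 ± 10.01 CPM in CD33KO_shPTPN6, 121 ± 14.8 CPM in CD33KO_shCTRL, 119 ± 6.86 CPM in WT_shPTPN6 and 147 ± 10.5 CPM in WT_shCTRL (SD, n = 5, 6, 6 and 6). Its log2 fold changes of -0.49 ± 0.08 and -0.31 ± 0.06 with the knockdown in the 2 lines (edgeR adjusted p = 4.89e-08 and 2.4e-06) differed by -0.18 (95% interval -0.37 to 0.01).

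Of the chromatin assembly, checkpoint and histone mRNA genes, 3 of 5 fell with the knockdown in the knockout (CHAF1A, CHAF1B and CLSPN), against a background of 21.6%. In wild type 1 fell (CLSPN), against a background of 30.4%. The summed level was 102 to 114 CPM in CD33KO_shPTPN6, 146 to 184 in CD33KO_shCTRL, 132 to 161 in WT_shPTPN6 and 143 to 169 in WT_shCTRL.

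CLSPN (ENSG00000092853, chr1:35720218-35769967, minus strand), claspin, the adaptor that lets ATR activate CHK1, stood at 28.2, 18.3, 25.6, 22.7 and 27.8 CPM in the 5 CD33KO_shPTPN6 libraries, against 47.9 to 62.5 CPM (median 55.3) in CD33KO_shCTRL. WT_shPTPN6 had 28.1 to 43.9 CPM (median 41.3), against 44.04 to 55.2 CPM (median 47.4) in WT_shCTRL. CD33KO_shPTPN6 overlapped only the lowest WT_shPTPN6 library, and WT_shPTPN6 ended just below WT_shCTRL. CLSPN fell by 1.16 ± 0.12 in the knockout (edgeR adjusted p = 4.11e-15) and fell by 0.31 ± 0.08 in wild type (edgeR adjusted p = 0.000987). CHAF1A and CHAF1B, subunits of the histone chaperone CAF-1, fell with the knockdown, -0.64 ± 0.13 (edgeR adjusted p = 2.6e-05) and -0.80 ± 0.24 (edgeR adjusted p = 0.00403) in the knockout. The fall of CHAF1B in CD33KO_shPTPN6 against WT_shPTPN6, -0.58 ± 0.23 (edgeR adjusted p = 0.0256), was lost with all libraries thinned to the lowest total (edgeR adjusted p = 0.0796), and without any 1 of CD33KO_shPTPN6 replicates 3, 5 or 6 or WT_shPTPN6 replicate 5 (edgeR adjusted p = 0.0563 to 0.082). SLBP, which binds the stem-loop of histone mRNAs, averaged 53.4 ± 6.63 CPM in CD33KO_shPTPN6, 56.7 ± 4.94 CPM in CD33KO_shCTRL, 61.1 ± 3.44 CPM in WT_shPTPN6 and 62.02 ± 3.09 CPM in WT_shCTRL (SD, n = 5, 6, 6 and 6). SLBP was lower with both perturbations than in WT_shCTRL, -0.21 ± 0.08 (edgeR adjusted p = 0.0227), a call lost without any 1 of CD33KO_shPTPN6 replicates 1 or 5 (edgeR adjusted p = 0.0837 to 0.123). UHRF1, which guides maintenance methylation behind the fork, had 4 to 8 counts in CD33KO_shPTPN6, 6 to 17 in CD33KO_shCTRL, 11 to 25 in WT_shPTPN6 and 13 to 25 in WT_shCTRL, and no difference was detectable at this depth.

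**Figure D3:**
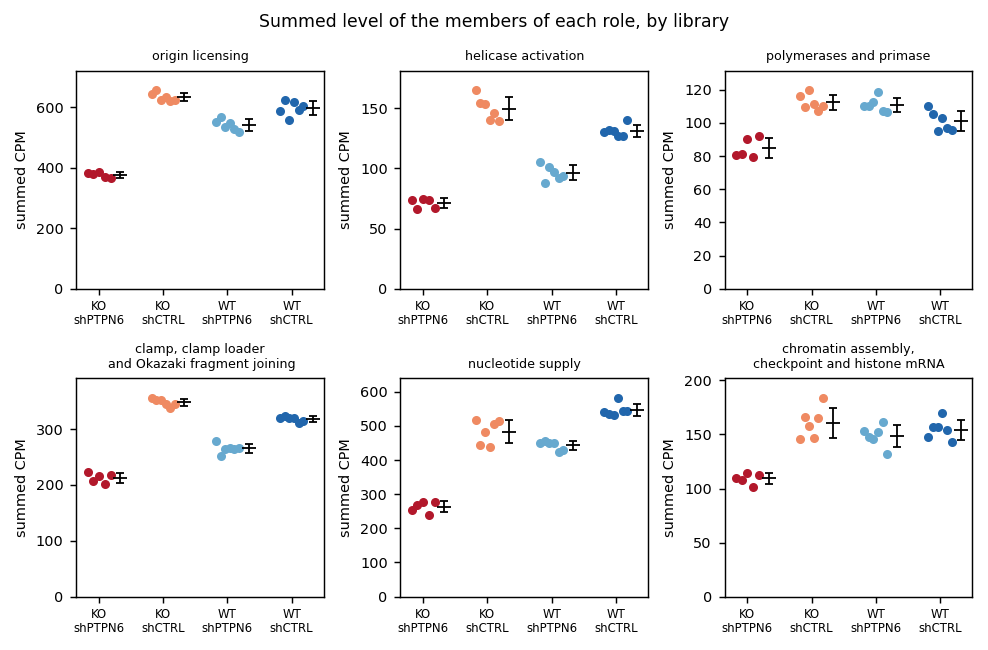
Points give the summed CPM (y axis, from 0) of the members of each role in each library, by group on the x axis, with bars for the mean ± SD. In all 6 panels the CD33KO_shPTPN6 points lie below the others; for helicase activation they are 66.3 to 74.5 CPM, against 139.5 to 164.7 in CD33KO_shCTRL.

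The design also asks whether the knockdown acts differently in the 2 lines, whose knockdown comparisons share no libraries. PTPN6 itself was lower in CD33KO_shPTPN6 than in WT_shPTPN6, -0.52 ± 0.19 (edgeR adjusted p = 0.0166). It was also lower in CD33KO_shCTRL than in WT_shCTRL, -0.23 ± 0.10 (edgeR adjusted p = 0.0372). Its own difference in knockdown effect, -0.29 ± 0.22, did not pass the test (edgeR adjusted p = 0.355). The part of unequal PTPN6 levels in the differences below was not tested. The knockdown effect was more negative in the knockout for all 39 members, against 6496 of the 13098 tested genes. The difference passed the test for 28, all lower, where 13.9% of all genes were lower and 14.5% higher. The median difference was -0.63, against 0.00 over all genes. Differences of at least 2-fold were called for 6 members (PRIM1, RRM2, ORC6, CDC6, ORC1 and GINS3), against 3.3% of all genes. The smallest p belonged to RRM2, -1.53 ± 0.15 (edgeR adjusted p = 5.71e-16), followed by TYMS, -0.84 ± 0.12 (2.78e-09), MCM2, -0.80 ± 0.11 (3.19e-09), RRM1, -0.61 ± 0.09 (7.31e-09), CDC6, -1.17 ± 0.17 (8.1e-09), and MCM4, -0.73 ± 0.11 (1.07e-08). For RRM2, MCM2, CDC6 and MCM4 the effect in wild type did not pass the test, while TYMS and RRM1 fell in both lines and further in the knockout. PRIM1 had the largest difference, -1.93 ± 0.35 (edgeR adjusted p = 4.71e-06), on few counts.

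Across the 39 members, 18 fell with the knockdown in both lines, and 12 fell in the knockout without passing the test in wild type. Another 2 rose in wild type and fell in the knockout (ORC1 and PRIM1), 1 rose in both (POLD3), 1 rose in wild type alone (RFC2) and 5 passed in neither. Taken singly, 30.4% of all genes were lower with the knockdown in wild type and 21.6% in the knockout. The share of all genes with each joint pattern was not computed, so these counts describe the members only. The difference between the lines was not called for 11 members, MCM7, GINS1, GINS2, POLA2, POLE2, POLD3, LIG1, DUT, UHRF1, CHAF1B and SLBP. Intervals were -0.27 to 0.23 for LIG1, -0.29 to 0.16 for SLBP, -0.67 to 0.27 for GINS1 and -0.58 to 0.09 for POLD3. Of the 28 called differences, that of POLA1, -0.55 ± 0.21 (edgeR adjusted p = 0.0368), was lost with all libraries thinned to the lowest total (edgeR adjusted p = 0.0915), without the low-count filter (edgeR adjusted p = 0.0707), and without any 1 of CD33KO_shCTRL replicates 3 or 4 or CD33KO_shPTPN6 replicates 3 or 5 or WT_shCTRL replicates 2 or 6 or WT_shPTPN6 replicate 2 (edgeR adjusted p = 0.0533 to 0.104). That of RFC2, -0.56 ± 0.21 (edgeR adjusted p = 0.0291), was lost with all libraries thinned to the lowest total (edgeR adjusted p = 0.0904), without the low-count filter (edgeR adjusted p = 0.0688), and without any 1 of CD33KO_shPTPN6 replicates 3 or 4 or WT_shCTRL replicate 3 (edgeR adjusted p = 0.0553 to 0.0711). That of RFC5, -0.64 ± 0.18 (edgeR adjusted p = 0.00379), was lost with all libraries thinned to the lowest total (edgeR adjusted p = 0.0665).

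**Figure D4:**
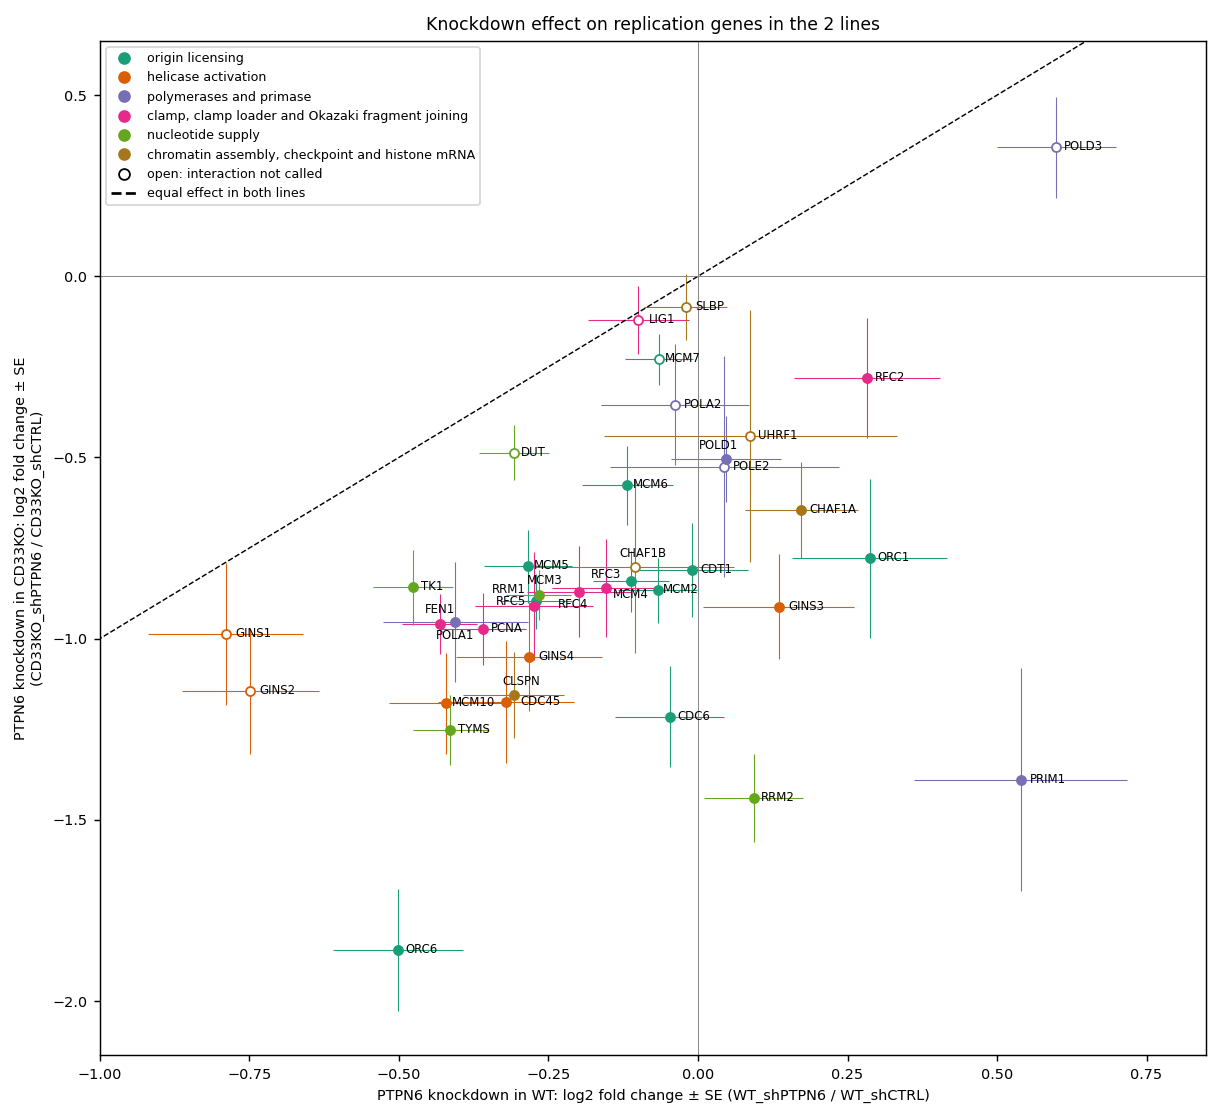
Each point is a member, with the log2 fold change of the PTPN6 knockdown in wild type on the x axis and in the CD33 knockout on the y axis, ± SE; the dashed line marks equal effects and open points have no called difference. All 39 points lie below the line, with RRM2 at 0.09 and -1.44 and ORC6 lowest at -1.86.

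Genes of the wider cell cycle were described from 3 lists, none of whose genes is a member. Mitosis and G2 genes had the lowest medians: in CD33KO_shPTPN6 28 of 29 tested were lower than in CD33KO_shCTRL (median log2 fold change -1.19) and 29 of 29 lower than in WT_shCTRL (median -1.61). With the knockout and the empty vector, 18 of 29 were lower and 1 higher (median -0.31), and with the knockdown in wild type 21 were lower and 1 higher (median -0.42). The difference between the lines was called lower for 24 of 29 (median -0.85), against 13.9% of all genes. Of all genes, 21.6% were lower in CD33KO_shPTPN6 than in CD33KO_shCTRL and 31.7% lower than in WT_shCTRL. With the knockout and the empty vector 28.4% were lower and 28.3% higher, and with the knockdown in wild type 30.4% and 30.2%. TOP2A, the topoisomerase that untangles sister chromatids, averaged 106 ± 8.16 CPM in CD33KO_shPTPN6, 299.7 ± 19.1 CPM in CD33KO_shCTRL, 204 ± 14.2 CPM in WT_shPTPN6 and 306 ± 17.98 CPM in WT_shCTRL (SD, n = 5, 6, 6 and 6). CDC20, an activator of the anaphase-promoting complex, was the 1 mitotic gene higher in the knockout with the empty vector, 0.76 ± 0.05 (edgeR adjusted p = 8.01e-29), and fell by 2.15 ± 0.06 there with the knockdown (edgeR adjusted p = 1.51e-57).

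The 42 tested replication factors outside the 39 members had 24 lower and 4 higher in CD33KO_shPTPN6 against CD33KO_shCTRL (median -0.39) and 25 lower and 4 higher against WT_shCTRL (median -0.34). Of 27 tested E2F, RB and S-phase control genes, 17 were lower and 3 higher in CD33KO_shPTPN6 against CD33KO_shCTRL (median -0.55) and 16 lower and 5 higher against WT_shCTRL (median -0.40). For both lists the backgrounds were 21.6% lower and 20.5% higher against CD33KO_shCTRL, and 31.7% lower and 32.1% higher against WT_shCTRL. CCNE1, the cyclin that drives entry into S phase, averaged 9.46 ± 1.998 CPM in CD33KO_shPTPN6, 20.1 ± 1.63 CPM in CD33KO_shCTRL, 18.4 ± 2.205 CPM in WT_shPTPN6 and 12.6 ± 1.72 CPM in WT_shCTRL (SD, n = 5, 6, 6 and 6). Each single perturbation raised it, by 0.68 ± 0.14 (edgeR adjusted p = 7.2e-06) and 0.55 ± 0.12 (edgeR adjusted p = 6.25e-05), and both together lowered it, -0.40 ± 0.17 (edgeR adjusted p = 0.0351). CDKN1A, the cyclin-dependent kinase inhibitor p21, averaged 1354 ± 63.8 CPM in CD33KO_shPTPN6, 1075 ± 36.5 CPM in CD33KO_shCTRL, 928 ± 49.7 CPM in WT_shPTPN6 and 788 ± 17.8 CPM in WT_shCTRL (SD, n = 5, 6, 6 and 6). It rose with the knockdown in the knockout, 0.33 ± 0.05 (edgeR adjusted p = 8.1e-10), and with both perturbations against WT_shCTRL, 0.78 ± 0.05 (edgeR adjusted p = 3.79e-31), the opposite direction to most members. E2F3, an activating E2F, was higher in both knockout groups, 0.85 ± 0.08 with the hairpin (edgeR adjusted p = 1.26e-17) and 1.07 ± 0.07 without it (edgeR adjusted p = 5.27e-26), each against WT_shCTRL.

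**Figure D5:**
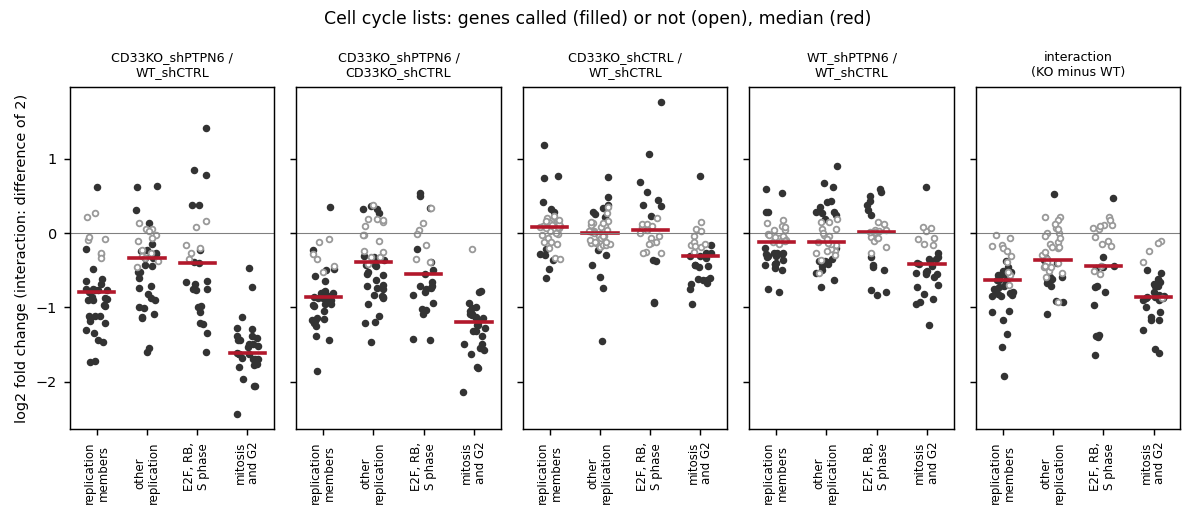
Each point is a tested gene of 1 of 4 lists (x axis) with its log2 fold change (y axis) in 5 comparisons (panels); filled points passed the test, open points did not, and red lines are medians. The medians of the 39 members are -0.79, -0.87, 0.08, -0.12 and -0.63 from left to right, and mitosis and G2 genes have the lowest median in every panel.

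Several members share exon bases with other genes, and the sources used here do not give whether reads were counted by strand. Beyond TYMS, PRIM1 and GINS3, FEN1 shares 166 bases with TMEM258 and 49 with FADS2, RFC5 186 with WSB2, MCM7 392 with AP4M1, CHAF1B 89 with MORC3 and POLD3 123 with AP001372.2. DUT shares 533 with AC023355.1, MCM2 45 with TPRA1, RFC4 21 with EIF4A2, CHAF1A 20 with UBXN6 and GINS2 7 with GSE1. On its own strand POLA2 shares 2012 bases with AP000944.2, which had 2 counts over all libraries. Partners with 0 counts share 1077 bases with RRM2 (AC007240.1), 426 with POLD1 (AC020909.1) and 362 with PRIM1 (AC117378.1), also on the same strand. Some further overlaps are not listed. The counts of all these members are uncertain where reads fall in the shared bases, and how many do was not tested. DUT has a pseudogene copy, DUTP6, with 77 counts against 10311 for DUT over all libraries. ORC1, PRIM1, POLE2, UHRF1 and CHAF1B had under 10 counts in at least 1 library.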

How the data were processed

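Raw read counts per gene were used as deposited by the authors. Libraries were made with the QuantSeq 3' mRNA-Seq kit from 100 ng of total RNA, per the labels' protocols, and build hg38, STAR 2.7.3a, bcl2fastq, DESeq2 1.26.0, R 3.6.1 and Subread 2.0.0 with featureCounts appear, with no roles, in the processing notes of the submitters. The annotation release, strand setting and handling of duplicates are not given in the sources used here. A 3' library yields about 1 tag per transcript, so counts were not divided by length and levels are compared only within a gene.

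Of 60617 gene identifiers, 60261 matched a symbol. Counts of 23 libraries (2024032 to 6269304 per library) were filtered with filterByExpr and TMM-scaled. CD33KO_shPTPN6 replicate 2 had no column among these counts. The 23 libraries were fitted in 1 model with a mean per group by edgeR 4.0.16 in R 4.3.3 (quasi-likelihood, robust). Before that, the script was tested on simulated data. Adjusted p-values are Benjamini-Hochberg over 13098 genes at 0.05. The interaction is the knockdown effect in CD33KO minus that in WT. Alternatives were DESeq2 1.42.0, RLE scaling, library totals, no low-count filter (a summed count of at least 10), thinning to 2024032 counts, only the groups compared, a replicate block and leaving out each library. The members and lists were chosen with earlier results of these data known. Values per library are given for members with the smallest adjusted p in each role and direction in each comparison with WT_shCTRL, and for the 6 with the smallest interaction p. PRIM1, with the largest interaction, was added after its values were seen. Gene positions and exon overlaps come from GENCODE 29 on GRCh38. Python 3.11.15, pandas 2.3.3 and matplotlib 3.10.9 made the tables and figures.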

Additional observations from a re-analysis of the deposited data

Results flagged for a closer look

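In groups of 5 or 6 libraries, a single library stood far from the others in 14 of the 160 groups examined, where chance gives about 1 in 20. In CD33KO_shPTPN6 these were DUT in replicate 1 (68.7 CPM, lowest), CHAF1A in replicate 1 (27.7 CPM, highest), LIG1 in replicate 4 (68.7 CPM, highest), FEN1 in replicate 5 (40.7 CPM, lowest) and ORC6 in replicate 6 (12.3 CPM, highest). In CD33KO_shCTRL they were MCM3 (139.8 CPM, highest) and RFC5 (20.6 CPM, lowest) in replicate 2, and TK1 (44.9 CPM), POLD3 (13.7 CPM) and PRIM1 (4.28 CPM) in replicate 4, each the lowest of its group. In WT_shPTPN6 it was CHAF1A in replicate 5 (45.4 CPM, highest). In WT_shCTRL they were CDC6 in replicate 1 (29.2 CPM, lowest), SLBP in replicate 3 (68.03 CPM, highest) and RRM1 in replicate 4 (177 CPM, highest).

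For 28 members the knockdown effect differed between the lines by the edgeR interaction test, each time more negative in the knockout (log2 fold change in CD33KO minus that in WT). The differences were -1.53 for RRM2, -0.84 for TYMS, -0.80 for MCM2, -0.61 for RRM1, -1.17 for CDC6, -0.73 for MCM4, -1.36 for ORC6, -0.63 for MCM3, -0.85 for CLSPN, -1.93 for PRIM1, -1.05 for GINS3, -0.53 for FEN1, -0.82 for CHAF1A and -0.80 for CDT1. For the other 14 of these members they were -0.61 for PCNA, -0.76 for MCM10, -0.67 for RFC4, -0.71 for RFC3, -1.07 for ORC1, -0.85 for CDC45, -0.52 for MCM5, -0.77 for GINS4, -0.55 for POLD1, -0.64 for RFC5, -0.46 for MCM6, -0.38 for TK1, -0.56 for RFC2 and -0.55 for POLA1.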

How the results depend on the processing

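Of 157 called member effects, 140 passed the threshold in the same direction in every one of up to 30 alternatives (the interaction, which uses all 4 groups, has no fit on only the groups compared), 17 were lost in at least 1 and 0 reversed. Thinning lost 13, the missing low-count filter 4, library totals 3, DESeq2 1, the replicate block 1, and RLE scaling and fitting only the groups compared 0. Of 77 uncalled effects, 20 were called in at least 1 alternative. With thinned libraries, 3 members were lower in CD33KO_shCTRL against WT_shCTRL (6 without thinning). Members higher in WT_shPTPN6 against WT_shCTRL numbered 2 with thinning, 2 with library totals and 2 without the filter, against 4, and 2 to 4 when 1 library was left out, with 2 without WT_shCTRL replicate 3 or WT_shPTPN6 replicate 5. Members higher in CD33KO_shPTPN6 against CD33KO_shCTRL numbered 0 with thinning and 0 with library totals, against 1, POLD3, and 0 to 1 when 1 library was left out, with 0 without CD33KO_shPTPN6 replicate 3 or 6 or CD33KO_shCTRL replicate 4. The cause was not tested. Leaving out 1 library gave 32 to 33 members lower in CD33KO_shPTPN6 against CD33KO_shCTRL, 29 to 31 against WT_shCTRL, and 26 to 29 lower differences between the lines.

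With a replicate block, 29 members were lower in CD33KO_shPTPN6 against WT_shPTPN6 (30 without it), and SLBP was lost (edgeR adjusted p = 0.0533). No pairing of libraries by number was detected. Over 33 same-number pairs the deviations from the group means correlated at -0.0493 to 0.0324, and 0 exceeded 0.1. Only 3 libraries correlated best with their own number. Low correlations cannot show that libraries of the same number were prepared apart. Low counts limit ORC1, PRIM1, POLE2, UHRF1 and CHAF1B.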

Other observations

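Genes next to the replication machinery did not all share its direction. SAMHD1, which degrades deoxynucleotides and so opposes ribonucleotide reductase, averaged 81.7 ± 6.75 CPM in CD33KO_shPTPN6, 63.7 ± 6.09 CPM in CD33KO_shCTRL, 199 ± 13.4 CPM in WT_shPTPN6 and 174 ± 4.702 CPM in WT_shCTRL (SD, n = 5, 6, 6 and 6). SAMHD1 was lower in CD33KO_shCTRL than in WT_shCTRL, -1.45 ± 0.06 (edgeR adjusted p = 3.86e-41), and the knockdown raised it in the knockout, 0.37 ± 0.08 (edgeR adjusted p = 4.67e-05), and in wild type, 0.19 ± 0.05 (edgeR adjusted p = 0.000804). HELLS, a chromatin remodeller of dividing cells, averaged 26.5 ± 4.53 CPM in CD33KO_shPTPN6, 48.03 ± 6.12 CPM in CD33KO_shCTRL, 51.2 ± 4.35 CPM in WT_shPTPN6 and 49.2 ± 2.34 CPM in WT_shCTRL, with -0.86 ± 0.11 for the knockdown in the knockout (edgeR adjusted p = 1.92e-10). ASF1B, a histone chaperone, averaged 20.2 ± 2.13 CPM in CD33KO_shPTPN6, 46.96 ± 4.803 CPM in CD33KO_shCTRL, 36.6 ± 4.04 CPM in WT_shPTPN6 and 40.4 ± 4.32 CPM in WT_shCTRL, with -1.22 ± 0.12 (edgeR adjusted p = 1.64e-15).

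RPA2 and RPA3, subunits of the single-strand binding protein, moved apart. RPA2 averaged 68.8 ± 3.79 CPM in CD33KO_shPTPN6, 56.95 ± 5.52 CPM in CD33KO_shCTRL, 83.3 ± 6.61 CPM in WT_shPTPN6 and 44.96 ± 5.93 CPM in WT_shCTRL and rose with the knockdown in the knockout, 0.27 ± 0.09 (edgeR adjusted p = 0.00978), and in wild type, 0.90 ± 0.07 (edgeR adjusted p = 2.81e-21). RPA3 averaged 15.9 ± 1.38 CPM in CD33KO_shPTPN6, 34.5 ± 3.49 CPM in CD33KO_shCTRL, 28.04 ± 4.18 CPM in WT_shPTPN6 and 46.8 ± 3.06 CPM in WT_shCTRL and fell in both, -1.12 ± 0.13 (edgeR adjusted p = 5.94e-12) and -0.73 ± 0.09 (edgeR adjusted p = 2.13e-12). POLE4, a small subunit of polymerase epsilon, averaged 68.5 ± 7.13 CPM in CD33KO_shPTPN6, 54.98 ± 2.71 CPM in CD33KO_shCTRL, 72.4 ± 7.49 CPM in WT_shPTPN6 and 83.4 ± 10.4 CPM in WT_shCTRL. The knockdown raised POLE4 in the knockout, 0.32 ± 0.09 (edgeR adjusted p = 0.00302), and lowered it in wild type, -0.20 ± 0.07 (edgeR adjusted p = 0.00723), and the difference between the lines was 0.52 ± 0.11 (edgeR adjusted p = 0.000138).

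Cell cycle brakes also differed in direction. CDKN1B (p27) averaged 25.3 ± 2.09 CPM in CD33KO_shPTPN6, 17.4 ± 3.61 CPM in CD33KO_shCTRL, 50.1 ± 7.77 CPM in WT_shPTPN6 and 33.2 ± 2.902 CPM in WT_shCTRL. The knockdown raised it in the knockout, 0.54 ± 0.14 (edgeR adjusted p = 0.00114), and in wild type, 0.59 ± 0.09 (edgeR adjusted p = 6.29e-09), while the knockout with the empty vector lowered it, -0.93 ± 0.12 (edgeR adjusted p = 1.56e-11). CDKN2C (p18) averaged 30.6 ± 5.09 CPM in CD33KO_shPTPN6, 48.5 ± 4.86 CPM in CD33KO_shCTRL, 52.6 ± 4.78 CPM in WT_shPTPN6 and 93.9 ± 4.72 CPM in WT_shCTRL. The knockdown lowered CDKN2C and RB1 in the knockout and in wild type, with -0.66 ± 0.11 and -0.83 ± 0.07 for CDKN2C (edgeR adjusted p = 1.01e-07 and 2.86e-20) and -0.39 ± 0.07 and -0.45 ± 0.06 for RB1 (edgeR adjusted p = 1.99e-06 and 4.94e-12). Values are mean ± SD over 5 CD33KO_shPTPN6 libraries and 6 in each other group.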
